A study of Homo sapiens with 4 samples.

Results

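The nuclear-encoded respiratory chain genes are the genes of the nucleus that encode the protein subunits of complexes I to V of the inner mitochondrial membrane. They were taken by symbol from the features listed with the counts. Symbols that start with NDUFA, NDUFB, NDUFC, NDUFS, NDUFV, UQCR, COX4, COX5, COX6, COX7, COX8 or ATP5 were used, together with SDHA, SDHB, SDHC, SDHD and CYC1. The rule gave 89 members of 37468 features, after 8 NDUFAF assembly factors and 6 antisense or divergent transcripts were left out. Of these, 37 belong to complex I, 4 to complex II, 10 to complex III, 19 to complex IV and 19 to complex V. NDUFA4 and NDUFA4L2 carry complex I names and were placed with complex IV, where the NDUFA4 protein is known to reside. All 89 are protein-coding genes in GENCODE 29.

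The libraries came from MSTO-211H, an established human mesothelioma line labelled WT, grown in suspension without serum in medium with EGF, bFGF, heparin and a neuronal supplement. The groups were Drug_Radiation (QTP at 10 µM and 4 Gy), Drug (QTP at 10 µM, no radiation), Radiation (4 Gy, no QTP) and Control (neither, with vehicle per the design text). QTP is a compound that the series title places under inhibition of dopamine receptors, and it was given the day before irradiation. Cells of all groups were collected 48 h after the time of irradiation. Each group was 1 library of single cells of 1 line, and the protocol speaks of pooled cells, so no value has a replicate and no test between groups was possible.

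The respiratory chain passes electrons from NADH and succinate to oxygen and uses the energy to pump protons. Complex I takes electrons from NADH and complex II takes them from succinate. Complex III hands them to cytochrome c, complex IV passes them to oxygen, and complex V, the ATP synthase, lets protons flow back to make ATP. Complex II is encoded by the nucleus alone, while the other complexes also hold subunits encoded by mitochondrial DNA, so their assembly draws on transcripts of both genomes. The nuclear genes are known as a group with shared promoter elements for NRF1, the ETS factor GABPA (also called NRF2 alpha) and YY1.

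Levels rest on raw unique molecular identifiers (UMIs, each counting 1 captured RNA molecule). For every library, the UMIs of a gene in all kept cells were added and scaled to the nuclear-encoded total as CPM. Cells numbered 6990 in Drug_Radiation, 3802 in Drug, 2425 in Radiation and 3183 in Control. The median cell had 18024.5 UMIs in Drug_Radiation, 20405 in Drug, 5299 in Radiation and 2318 in Control. Depth thus went with QTP and, without QTP, with radiation, so depth and treatment cannot be told apart by the design, and any library batch cannot either. No barcode was shared between libraries. Of the mesothelial and mesenchymal markers, KRT8, KRT18, VIM and CAV1 were high in every library, CALB2 had 27.6 to 49.2 CPM and MSLN 8.27 to 14.1 CPM, while WT1, UPK3B, KRT19, PDPN and TNC were below 2 CPM. Summed endothelial markers were between 0.628 and 1.19 CPM and red cell markers between 1.86 and 2.90 CPM. Of the immune markers only CD68 passed 1 CPM (39.3 CPM in Drug_Radiation, 39.8 in Drug, 41.5 in Radiation and 16.2 in Control).

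Of the 89 members, 82 had at least 20 CPM in some library and were compared, and 81 of them had it in every library. The 7 below that floor were UQCRHL, COX4I2, COX6A2, COX6B2, COX7A1, COX7B2 and COX8C, and each of these had at least 1 UMI in some library. Differences are log2 ratios of CPM, each with an exact 95% interval that covers counting error only. Since the libraries differ in the typical ratio of all features, a relative ratio is the log2 ratio minus the median of all features that reached 20 CPM in either library compared. That median was 0.19 for Radiation against Control, -0.18 for Drug_Radiation against Drug, 0.51 for Drug against Control, 0.13 for Drug_Radiation against Radiation and 0.33 for Drug_Radiation against Control. A member is called when it lies 1.5-fold (0.585 on the log2 scale) or more from that median, as a size and not as a test.

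**Figure D1:**
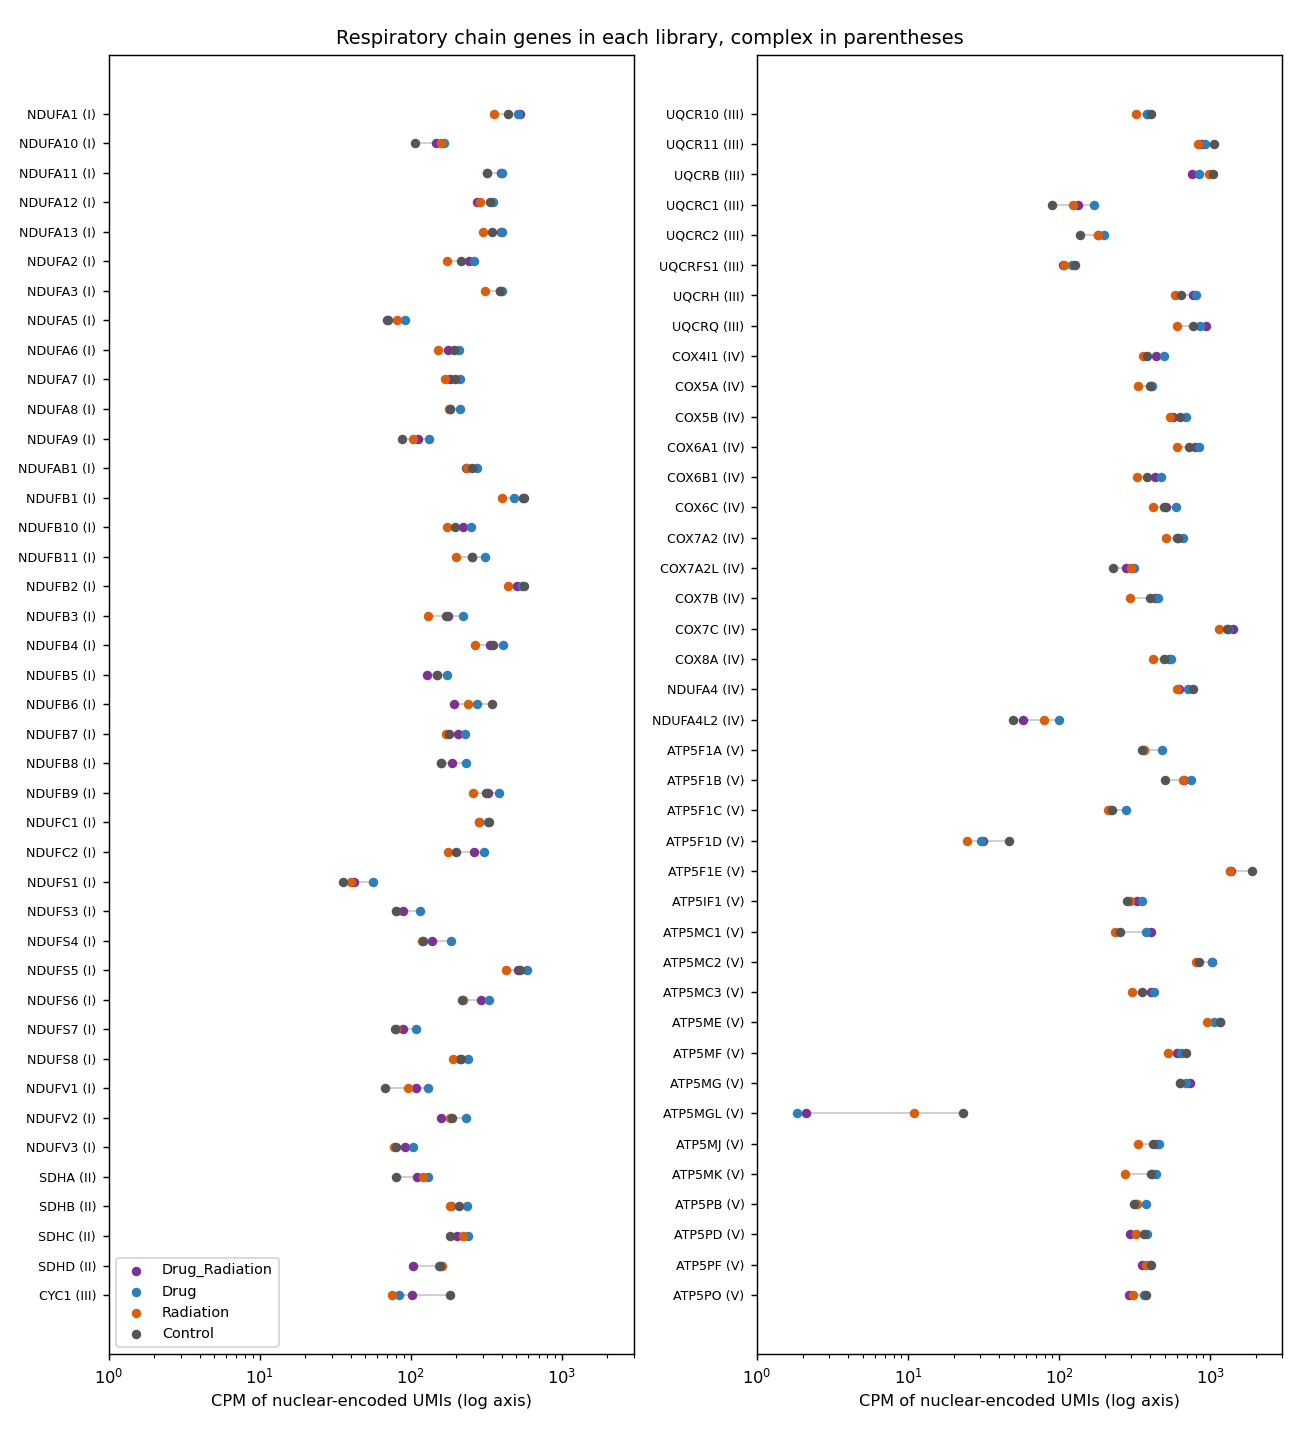
CPM of nuclear-encoded UMIs on a log axis for 81 of the 82 members with at least 20 CPM in some library, 1 point per library, with the complex in parentheses. All members plotted but NDUFA4L2, CYC1 and ATP5MGL span less than 2-fold over the 4 libraries. ATP5MGL runs from 1.85 CPM in Drug to 23.1 CPM in Control and CYC1 from 74.6 CPM in Radiation to 182 CPM in Control.

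Together the 89 members made up 3.01% of nuclear-encoded UMIs in Drug_Radiation, 3.25% in Drug, 2.61% in Radiation and 2.99% in Control. Radiation was the lowest library and Drug the highest. Complexes I, IV and V each followed that order at both ends. Complex I summed to 8735 CPM in Drug_Radiation, 9909 in Drug, 7405 in Radiation and 8528 in Control. Complex IV summed to 7066, 7587, 5917 and 6827 CPM in Drug_Radiation, Drug, Radiation and Control, and complex V to 9425, 9844, 8284 and 9504 CPM in the same libraries. Complex III had 4251 CPM in Drug_Radiation, 4368 in Drug, 3802 in Radiation and 4452 in Control, so that Control was the highest. Complex II stood apart with its lowest sum in Drug_Radiation, at 598 CPM, against 756 in Drug, 684 in Radiation and 624 in Control.

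**Figure D2:**
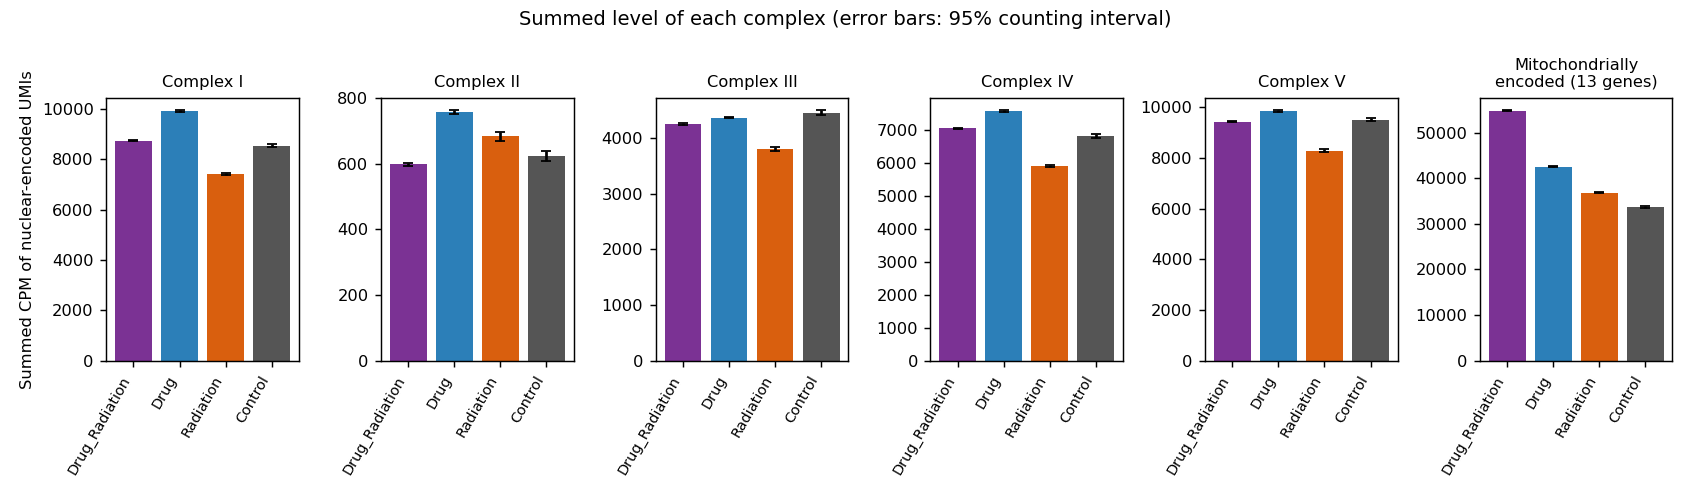
Summed CPM of nuclear-encoded UMIs of each complex and of the 13 mitochondrially encoded subunits, 1 bar per library, with 95% Poisson intervals for counting error. Radiation is the lowest library for complexes I, III, IV and V, Drug_Radiation is the lowest for complex II, and the mitochondrially encoded sum is highest in Drug_Radiation at 54801 CPM.

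The radiation comparisons ask how irradiated cells differed from cells that were not, with QTP and without it. In Radiation against Control, 72 of 82 members lay below the median of all features (50% of features do by construction), and the median member had a log2 ratio of -0.19, or -0.37 relative to all features. No member was called higher (7.49% of features were) and 8 were called lower (7.18% of features), so that the set lay low as a body with a share of large differences near that of all features. Those 8 were CYC1, ATP5MGL, ATP5F1D, ATP5MK, NDUFB6, ATP5F1E, NDUFB1 and COX7B. In Drug_Radiation against Drug, 39 of 81 members lay below the median of all features (50%), the median member had a log2 ratio of -0.18 and a relative ratio of 0.00, and the set sat where all features sat. No member was called higher there (1.69% of features) and only NDUFA4L2 was called lower (0.628%).

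By complex, the members below the median of all features in Radiation against Control were 34 of 37 in complex I, 2 of 4 in complex II, 7 of 9 in complex III, 11 of 13 in complex IV and 18 of 19 in complex V. In Drug_Radiation against Drug they were 24 of 37, 4 of 4, 2 of 9, 4 of 13 and 5 of 18 in complexes I to V. Complexes III, IV and V thus lay on opposite sides of the median in the radiation comparisons with and without QTP. The difference between these comparisons was not tested.

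The QTP comparisons ask how treated cells differed from untreated cells. In Drug against Control, 66 of 82 members lay below the median of all features (50%). The median member had a log2 ratio of 0.23 but a relative ratio of -0.29, since the typical feature was higher still. No member was called higher (6.51% of features) and 13 were called lower (8.84%), with 5 in complex III, 5 in complex V, 2 in complex I and 1 in complex IV. In Drug_Radiation against Radiation, 33 of 81 lay below the median of all features (50%) and the median member had a log2 ratio of 0.21 and a relative ratio of 0.08. ATP5MC1 was called higher (4.62% of features), and SDHD and NDUFA4L2 were called lower (3.63%). In Drug_Radiation against Control, 71 of 82 lay below the median (50%), 0 were called higher (8.56%) and 13 were called lower (8.93%), with a median relative ratio of -0.29. The 13 of Drug against Control were NDUFB1, NDUFB6, CYC1, UQCRB, UQCRFS1, UQCR10, UQCR11, NDUFA4, ATP5F1D, ATP5F1E, ATP5ME, ATP5MF and ATP5MGL, and those of Drug_Radiation against Control were NDUFA12, NDUFB6, SDHD, CYC1, UQCRB, UQCRFS1, UQCR11, NDUFA4, ATP5F1D, ATP5F1E, ATP5PD, ATP5PO and ATP5MGL.

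By the larger size of 2-fold relative to all features, 0 members were higher in any comparison. The share of all features was 0.934% in Radiation against Control, 0.503% in Drug_Radiation against Drug, 0.739% in Drug against Control, 0.783% in Drug_Radiation against Radiation and 1.43% in Drug_Radiation against Control. CYC1 and ATP5MGL were 2-fold lower in each comparison with Control, ATP5F1D in Radiation against Control and Drug against Control, and NDUFB6 in Drug_Radiation against Control. That is 3 members in each of these comparisons, where 1.72% of features were 2-fold lower in Radiation against Control, 3.71% in Drug against Control and 3.28% in Drug_Radiation against Control. No member was 2-fold lower in Drug_Radiation against Drug (0% of features) or in Drug_Radiation against Radiation (1.76%).

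The 3 comparisons with Control share that library, and each placed the members low relative to all features, so a trait of the Control library cannot be told apart from a response. The sign of the plain ratio also depends on scaling. With TMM scaling, members with a log2 ratio below 0 numbered 63 of 82 in Drug against Control, in place of 18 of 82 with CPM, while the count below the median of all features was 66 with either scaling. Cells of 6500 to 15000 UMIs numbered 2533 in Drug_Radiation, 1023 in Drug, 770 in Radiation and only 173 in Control. Their median depths were 11462, 10833, 8566 and 7775 UMIs in those libraries, against 18024.5, 20405, 5299 and 2318 over all kept cells. Depth was thus closer but not equal, with shallow cells of the libraries with QTP set against deep cells of the others. No counting interval was computed for ratios in this range. There, 2 of 81 members were called lower in Radiation against Control (7.46% of features at that setting) and 3 in Drug against Control (9.63%). The median relative ratios were -0.23 and -0.18. With each cell thinned to 1000 UMIs 31 of 82 members were called lower in Radiation against Control (37.8%, against 11.6% of features), and with equal weight per cell 25 were (30.5%, against 9.55%). This count therefore rests on how cells of different depth are weighed.

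**Figure D3:**
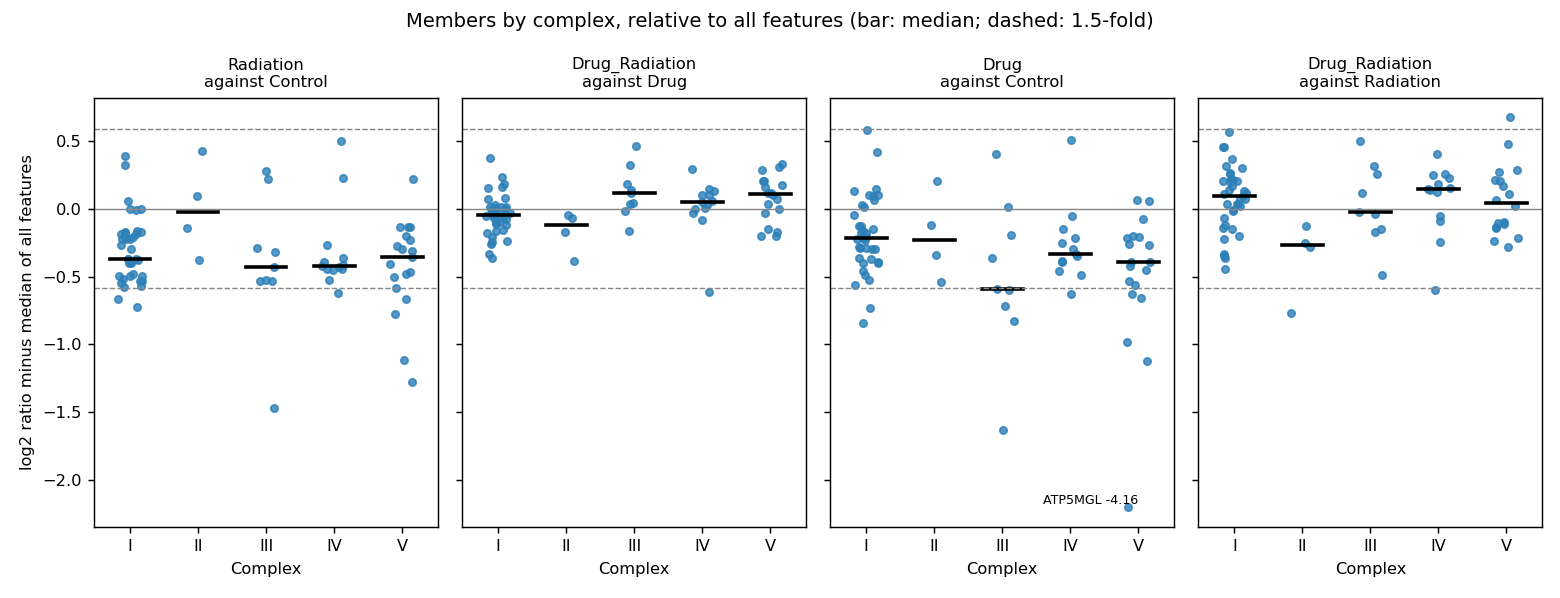
Log2 ratio of CPM minus the median of all features, for members that reached 20 CPM in either library, by complex (Roman numerals), with a bar at the median of each complex and dashed lines at 1.5-fold. In Radiation against Control and Drug against Control most points lie below 0, while in Drug_Radiation against Drug they lie around it; ATP5MGL, at -4.16 in Drug against Control, is drawn at the lower edge.

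Complex I holds 7 nuclear-encoded core subunits, which carry the flavin and the iron-sulfur clusters, and 30 accessory subunits among the members. The core subunits summed to 763 CPM in Drug_Radiation, 954 in Drug, 707 in Radiation and 698 in Control. Against Control they lay nearer to all features than the accessory subunits did, with median relative ratios in Drug against Control of 0.02 for the core and -0.26 for the others. In Radiation against Control the same medians were -0.16 and -0.38. Whether core and accessory subunits differ was not tested.

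NDUFV1, the subunit that binds FMN and accepts electrons from NADH, had 108 CPM in Drug_Radiation, 129 in Drug, 96.2 in Radiation and 67.6 in Control. Control was the lowest of the libraries, and the log2 ratio in Drug against Control was 0.94 (0.82 to 1.06), or 0.42 relative to all features. Its partner NDUFV2, an iron-sulfur subunit of the same module, had 158 CPM in Drug_Radiation, 232 in Drug, 183 in Radiation and 187 in Control. Here Drug_Radiation was the lowest, and NDUFV2 had the lowest ratio of complex I in Drug_Radiation against Drug, at -0.55 (-0.58 to -0.52). NDUFS1, the largest iron-sulfur subunit, had 42.0 CPM in Drug_Radiation, 56.4 in Drug, 40.2 in Radiation and 35.7 in Control.

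Among the accessory subunits, NDUFA10 had the highest ratio of complex I in Radiation against Control, 0.57 (0.46 to 0.68). Its levels were 148 CPM in Drug_Radiation, 166 in Drug, 157 in Radiation and 106 in Control, with Control below the other 3 libraries. NDUFB6, a membrane-arm subunit, had 192 CPM in Drug_Radiation, 275 in Drug, 238 in Radiation and 346 in Control. Control was the highest and Drug_Radiation the lowest, with log2 ratios of -0.54 (-0.61 to -0.47) in Radiation against Control, -0.33 (-0.38 to -0.28) in Drug against Control and -0.85 (-0.91 to -0.80) in Drug_Radiation against Control. Drug_Radiation was 2-fold lower than Control relative to all features (-1.19; 3.28% of features were), and among cells of 6500 to 15000 UMIs it lay just short of that (-0.99), where the other comparisons with Control missed 1.5-fold (-0.50 in both).

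NDUFB1, a small membrane-arm subunit, had 549.8 CPM in Drug_Radiation, 482 in Drug, 403 in Radiation and 561 in Control. Its log2 ratio in Drug_Radiation against Drug was the highest of the complex, 0.19 (0.17 to 0.21), while in Radiation against Control it had -0.48 (-0.53 to -0.42). NDUFC2 and NDUFA1, both of the membrane arm, had log2 ratios of 0.59 each in Drug_Radiation against Radiation, the highest among the accessory subunits. NDUFA5 stood at 69.3 CPM in Drug_Radiation, 91.0 in Drug, 80.4 in Radiation and 70.7 in Control, a range in which Drug was the highest. All 30 accessory subunits lay between -0.54 and 0.57 on the log2 scale in Radiation against Control, between -0.52 and 0.19 in Drug_Radiation against Drug, between -0.33 and 0.65 in Drug against Control and between -0.31 and 0.59 in Drug_Radiation against Radiation.

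Complex II, or succinate dehydrogenase, is the one complex that also works in the TCA cycle, and its 4 genes differed in their order over the libraries. SDHA, the flavoprotein that oxidises succinate, had 109 CPM in Drug_Radiation, 130.3 in Drug, 121 in Radiation and 79.2 in Control. Control was below the other 3, with log2 ratios of 0.61 (0.49 to 0.74) in Radiation against Control and 0.72 (0.61 to 0.83) in Drug against Control. Relative to all features these were 0.43 and 0.20, and 0.44 and 0.05 in cells of 6500 to 15000 UMIs. SDHB, the iron-sulfur subunit, had 183 CPM in Drug_Radiation, 234 in Drug, 182 in Radiation and 208 in Control, so both irradiated libraries were alike and lower than the others. SDHC, a membrane anchor with part of the heme site, had 203 CPM in Drug_Radiation, 239 in Drug, 220.3 in Radiation and 181 in Control, the same order of libraries as SDHA.

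SDHD, the other membrane anchor, had 103 CPM in Drug_Radiation, 153 in Drug, 160.1 in Radiation and 155 in Control. Drug, Radiation and Control lay in a narrow band and Drug_Radiation lay below it. The log2 ratio was -0.57 (-0.60 to -0.54) in Drug_Radiation against Drug, -0.64 (-0.70 to -0.57) in Drug_Radiation against Radiation and -0.59 (-0.67 to -0.51) in Drug_Radiation against Control. By contrast it was 0.04 (-0.05 to 0.14) in Radiation against Control and -0.02 (-0.10 to 0.06) in Drug against Control, where neither interval excludes equal CPM, while relative to all features these were -0.14 and -0.54. In cells of 6500 to 15000 UMIs the relative ratio was -0.88 in Drug_Radiation against Radiation (-0.77 in all cells) and -0.33 in Drug_Radiation against Drug (-0.39). SDHD lies on chromosome 11 from 112086773 to 112120013 of GRCh38 and SDHA on chromosome 5 from 218241 to 256700, in GENCODE 29.

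Promoters of SDHA, SDHB and SDHD of complex II are shown here with that of COX6A1, a ubiquitous complex IV subunit. Among the 70 members with a promoter in the source used, only SDHB, SDHD and COX6A1 had promoters with the letters of all 3 elements. SDHA held those of NRF1 in repeats, and SDHC had no promoter in that source. Sequences are from RefSeq on GRCh38.p14, 250 bases before to 30 after the annotated start, written 5′ to 3′ on the strand of the gene. Capitals mark CCGGAAG (GABPA and other ETS factors), TGCGCA (NRF1, which reads the same on both strands) and ATGGCG (YY1), on either strand, so CTTCCGG and CGCCAT are the second strand of the first and the last. SDHB lies at chr1:17054003-17054282 on the minus strand, SDHD at chr11:112086623-112086902 on the plus strand, SDHA at chr5:218070-218349 on the plus strand and COX6A1 at chr12:120437863-120438142 on the plus strand.
SDHB: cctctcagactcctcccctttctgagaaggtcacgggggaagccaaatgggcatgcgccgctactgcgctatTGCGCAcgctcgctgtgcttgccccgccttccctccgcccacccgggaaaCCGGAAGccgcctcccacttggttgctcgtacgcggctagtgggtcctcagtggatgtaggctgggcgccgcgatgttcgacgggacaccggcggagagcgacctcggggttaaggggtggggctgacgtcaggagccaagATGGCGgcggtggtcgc
SDHD: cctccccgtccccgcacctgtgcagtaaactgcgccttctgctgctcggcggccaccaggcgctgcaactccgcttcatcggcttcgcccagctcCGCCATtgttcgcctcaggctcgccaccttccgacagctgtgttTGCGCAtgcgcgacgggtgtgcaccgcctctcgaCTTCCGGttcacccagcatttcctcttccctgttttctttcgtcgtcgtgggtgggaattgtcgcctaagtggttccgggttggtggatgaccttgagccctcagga
SDHA: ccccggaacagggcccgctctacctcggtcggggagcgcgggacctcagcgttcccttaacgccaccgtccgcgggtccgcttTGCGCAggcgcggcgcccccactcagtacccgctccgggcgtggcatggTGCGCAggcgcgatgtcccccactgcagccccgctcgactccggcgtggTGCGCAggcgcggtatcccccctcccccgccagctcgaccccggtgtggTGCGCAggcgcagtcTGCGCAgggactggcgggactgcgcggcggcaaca
COX6A1: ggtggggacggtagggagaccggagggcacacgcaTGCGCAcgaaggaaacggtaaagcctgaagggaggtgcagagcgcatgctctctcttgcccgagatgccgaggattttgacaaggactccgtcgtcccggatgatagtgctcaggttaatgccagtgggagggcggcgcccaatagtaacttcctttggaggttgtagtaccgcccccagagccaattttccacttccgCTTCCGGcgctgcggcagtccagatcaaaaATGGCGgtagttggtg
In SDHA only the NRF1 letters occurred, 5 times. In SDHB and COX6A1 the YY1 letters began 13 and 14 bases after the start, and in SDHD they lay 155 bases before it on the other strand.

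Of the 89 members, 70 had a promoter in that table, with 83 starts in all. The GABPA letters were in 22 of 83 member promoters (26.5%), against 9.94% of all 35116 promoters and 19.8% of the promoters of features with at least 20 CPM in some library. The NRF1 letters were in 21 (25.3%), against 7.93% and 13.8%, and the YY1 letters in 21 (25.3%), against 9.08% and 16.1%. At least 1 of the elements was in 44 (53.0%), against 22.9% and 40.7%. By complex, the YY1 letters were in 15 of 39 promoters of complex I and in 0 of 7 of complex III, and the GABPA letters in 7 of 18 of complex V and 5 of 39 of complex I. These matches describe letters in a window, not bound sites. Of the members with all 3 elements, SDHD was lowest in Drug_Radiation and COX6A1 was lowest in Radiation. SDHB had 182 CPM in Radiation and 183 in Drug_Radiation, its lowest libraries. Whether the letters bear on the levels was not tested. COX6A1 had 789 CPM in Drug_Radiation, 837 in Drug, 603 in Radiation and 720.2 in Control.

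Complex III, or the cytochrome bc1 complex, passes electrons from ubiquinol to cytochrome c. CYC1 encodes cytochrome c1, the heme subunit that makes the last step of this transfer. It had 102 CPM in Drug_Radiation, 83.9 in Drug, 74.6 in Radiation and 182 in Control. Control stood above the other 3 libraries, and its counting interval (173 to 191 CPM) lay far from theirs. Log2 ratios were -1.28 (-1.40 to -1.17) in Radiation against Control, -1.12 (-1.19 to -1.04) in Drug against Control and -0.84 (-0.91 to -0.76) in Drug_Radiation against Control. Each was more than 2-fold relative to all features (-1.47, -1.63 and -1.17, where 1.72%, 3.71% and 3.28% of features were 2-fold lower). In the comparisons without Control, CYC1 was higher, with 0.28 (0.24 to 0.32) in Drug_Radiation against Drug and 0.45 (0.36 to 0.54) in Drug_Radiation against Radiation. Among cells of 6500 to 15000 UMIs the relative ratios were -1.51, -1.53 and -1.17 in the comparisons with Control. All the low values are set against the same library. CYC1 lies on chromosome 8 from 144095027 to 144097525.

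UQCRC1, a core subunit related to processing peptidases, ran the other way. It had 133 CPM in Drug_Radiation, 169.7 in Drug, 124 in Radiation and 89.9 in Control, with Control the lowest and Drug the highest. The log2 ratio in Drug against Control was 0.92 (0.81 to 1.02), or 0.40 relative to all features. In cells of 6500 to 15000 UMIs this relative ratio was -0.16, and that of Radiation against Control was -0.04 (0.28 in all cells). Those cells numbered 173 in Control and no counting interval was computed for them. Whether the direction relative to all features turned is therefore not settled. UQCRC2, its partner core subunit, had 179.5 CPM in Drug_Radiation, 198 in Drug, 182 in Radiation and 137 in Control, again with Control the lowest.

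UQCRB, a small subunit near the quinone site, had 759 CPM in Drug_Radiation, 840.3 in Drug, 973 in Radiation and 1044 in Control. Both libraries with QTP were below both without it, with log2 ratios of -0.31 (-0.34 to -0.28) in Drug against Control and -0.36 (-0.38 to -0.33) in Drug_Radiation against Radiation. The small subunit UQCRQ had 936 CPM in Drug_Radiation, 852 in Drug, 605 in Radiation and 769 in Control, and 0.63 (0.60 to 0.66) in Drug_Radiation against Radiation was the highest ratio of the complex. In Drug against Control its log2 ratio was 0.15, which is -0.37 relative to all features. UQCRFS1, the Rieske iron-sulfur protein, had 105 CPM in Drug_Radiation, 122 in Drug, 108 in Radiation and 128 in Control, a narrow range. UQCRH, the hinge protein, had 764, 800.3, 584 and 640.1 CPM in Drug_Radiation, Drug, Radiation and Control. Its near copy UQCRHL had 1.26 to 4.08 CPM, and since reads of near copies may be split between them its values are uncertain.

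Complex IV, cytochrome c oxidase, has subunits with paired isoforms, of which 1 is typical of muscle, lung or testis. The common forms made up nearly all UMIs of their pairs in these cells. COX4I2 had 2 UMIs in Drug_Radiation, 3 in Drug, 0 in Radiation and 0 in Control, against 61461, 42952, 5169 and 3417 UMIs of COX4I1 in those libraries. COX6A2 and COX7A1, the forms of heart and skeletal muscle, had between 0 and 2 UMIs in every library. A count of 0 in Control allows COX4I2 a share of up to 0.0878% of the pair, COX6A2 up to 0.0466% and COX7A1 up to 0.0552%, for counting error only. COX6B2, the testis form, was 0.366% of its pair in Drug_Radiation, 0.301% in Drug, 0.211% in Radiation and 0.205% in Control, and the intervals of Radiation (0.101% to 0.388%) and Control (0.0826% to 0.423%) overlapped those of both libraries with QTP.

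NDUFA4 had 622 CPM in Drug_Radiation, 707 in Drug, 603 in Radiation and 765 in Control, and its paralogue NDUFA4L2, a known target of the hypoxia factor HIF1, had 57.5, 100.02, 79.5 and 49.4 CPM in Drug_Radiation, Drug, Radiation and Control. NDUFA4L2 was higher with radiation alone (0.69, 0.53 to 0.85) and with QTP alone (1.02, 0.88 to 1.16), yet lower in Drug_Radiation than in Drug (-0.80, -0.84 to -0.75) and than in Radiation (-0.47, -0.56 to -0.38). It was the highest member of complex IV in Radiation against Control and in Drug against Control, and the lowest in Drug_Radiation against Drug and Drug_Radiation against Radiation. As a share of the UMIs of both genes, NDUFA4L2 was 8.47% (8.29% to 8.64%) in Drug_Radiation, 12.4% (12.1% to 12.6%) in Drug, 11.7% (11.02% to 12.3%) in Radiation and 6.07% (5.53% to 6.64%) in Control, with exact Clopper-Pearson intervals. In cells of 6500 to 15000 UMIs the relative ratio was 1.28 in Drug against Control (0.50 in all cells), -0.72 in Drug_Radiation against Drug (-0.61) and -0.10 in Drug_Radiation against Radiation (-0.60). In Drug_Radiation against Control it was 0.55 in those cells and -0.11 in all cells. NDUFA4L2 lies on chromosome 12 from 57234903 to 57240715.

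COX7A2L, a factor of supercomplexes of complexes III and IV, had 278 CPM in Drug_Radiation, 311 in Drug, 300.2 in Radiation and 225 in Control, and with NDUFA4L2 it was 1 of 2 in the complex above the median of all features in Radiation against Control. COX7B had 428 CPM in Drug_Radiation, 454 in Drug, 296 in Radiation and 401 in Control. Radiation was well below the rest, and COX7B had the lowest log2 ratio of the complex in Radiation against Control, -0.44 (-0.50 to -0.37), and the highest in Drug_Radiation against Radiation, 0.53 (0.49 to 0.58). COX7C, a small hydrophobic subunit, had 1409.6 CPM in Drug_Radiation, 1308 in Drug, 1135 in Radiation and 1285 in Control, and its 0.11 (0.10 to 0.12) in Drug_Radiation against Drug was the highest of the complex. COX4I1, COX5A, COX5B, COX6A1, COX6B1, COX6C, COX7A2 and COX8A were all lowest in Radiation and highest in Drug.

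**Figure D4:**
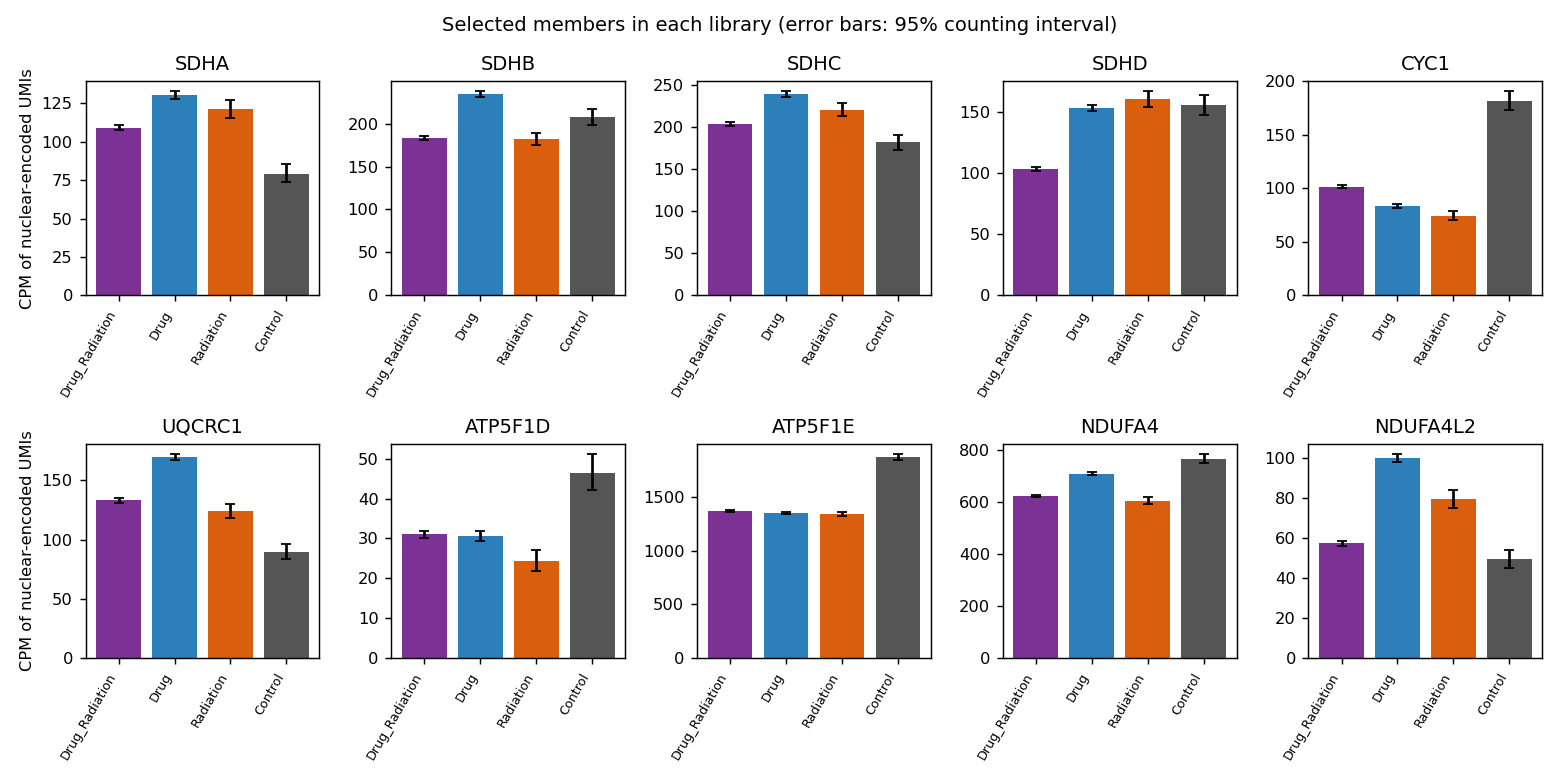
CPM of nuclear-encoded UMIs of 10 members in each library, with 95% Poisson intervals for counting error. SDHD is low in Drug_Radiation (103 CPM), CYC1, ATP5F1D and ATP5F1E are high in Control, and NDUFA4L2 is higher in Drug (100.02 CPM) and Radiation (79.5 CPM) than in Drug_Radiation and Control.

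Complex V, the ATP synthase, joins a catalytic head, a central stalk, a membrane ring of c subunits and a peripheral stalk. ATP5F1B, the catalytic beta subunit, had 671 CPM in Drug_Radiation, 745 in Drug, 663 in Radiation and 499 in Control, with Control the lowest. Its log2 ratio of 0.41 (0.36 to 0.46) was the highest of the complex in Radiation against Control, and that of 0.58 (0.53 to 0.62) the highest in Drug against Control. Relative to all features the second was 0.06 in all cells and -0.25 in cells of 6500 to 15000 UMIs, which numbered 173 in Control. The alpha subunit ATP5F1A had 364 CPM in Drug_Radiation, 477 in Drug, 365 in Radiation and 352 in Control, and Drug alone stood out.

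The central stalk subunits delta and epsilon were highest in Control. ATP5F1E, the epsilon subunit, had 1369 CPM in Drug_Radiation, 1351 in Drug, 1341 in Radiation and 1873 in Control. Drug_Radiation, Drug and Radiation were nearly level, with log2 ratios against Control of -0.45 (-0.47 to -0.43), -0.47 (-0.49 to -0.45) and -0.48 (-0.51 to -0.45). All 3 were called lower in all cells, and none was among cells of 6500 to 15000 UMIs (-0.45, -0.51 and -0.43 relative to all features). ATP5F1D, the delta subunit, had 31.1 CPM in Drug_Radiation, 30.6 in Drug, 24.4 in Radiation and 46.5 in Control. Its log2 ratios against Control were -0.58 (-0.73 to -0.43) for Drug_Radiation, -0.60 (-0.75 to -0.45) for Drug and -0.93 (-1.14 to -0.72) for Radiation. The gamma subunit ATP5F1C had 216, 276, 211 and 224 CPM in Drug_Radiation, Drug, Radiation and Control. Relative to all features it had -0.39 in Drug_Radiation against Control, -0.22 in Drug against Control and -0.27 in Radiation against Control, below the median of all features but not called.

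The c subunit of the proton ring is encoded by 3 genes whose mature proteins are known to be identical. ATP5MC1 had 407 CPM in Drug_Radiation, 373 in Drug, 233 in Radiation and 251 in Control. The log2 ratio of 0.80 (0.75 to 0.86) in Drug_Radiation against Radiation was the highest of all members in that comparison, and it was 0.57 (0.51 to 0.63) in Drug against Control. Relative to all features the second was 0.06, and -0.01 among cells of 6500 to 15000 UMIs, where all features lay. Among cells of 6500 to 15000 UMIs the relative ratio in Drug_Radiation against Radiation was 0.47, under 1.5-fold (0.67 in all cells). ATP5MC1 made up 22.2% of the UMIs of the 3 genes in Drug_Radiation, 20.4% in Drug, 17.3% in Radiation and 17.4% in Control, while ATP5MC2 made up 55.8%, 56.5%, 60.1% and 57.9% and ATP5MC3 22.0%, 23.1%, 22.6% and 24.7%.

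Of the small membrane subunits, ATP5MK had 414 CPM in Drug_Radiation, 434 in Drug, 271 in Radiation and 407 in Control. It was low in Radiation alone, with log2 ratios of -0.59 (-0.65 to -0.52) in Radiation against Control and 0.61 (0.56 to 0.66) in Drug_Radiation against Radiation. ATP5ME had the highest ratio of the complex in Drug_Radiation against Drug, 0.15 (0.13 to 0.16), with 1161, 1049.8, 945 and 1157 CPM in Drug_Radiation, Drug, Radiation and Control. The peripheral stalk subunits ATP5PD and ATP5PO had 292 and 288 CPM in Drug_Radiation, 381 and 363 in Drug, 324 and 309.6 in Radiation and 364 and 375 in Control. Both were lowest in Drug_Radiation, and both were called lower against Control there.

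ATP5IF1, the inhibitor that stops the synthase from running in reverse, had 325 CPM in Drug_Radiation, 351 in Drug, 292 in Radiation and 282 in Control. Its ratios lay near those of all features in all comparisons, with -0.14 in Radiation against Control, 0.07 in Drug_Radiation against Drug, -0.20 in Drug against Control, 0.02 in Drug_Radiation against Radiation and -0.13 in Drug_Radiation against Control, each relative to all features. ATP5MGL, a near copy of ATP5MG, had 2.12 CPM in Drug_Radiation, 1.85 in Drug, 10.9 in Radiation and 23.1 in Control. These rest on 300, 161, 156 and 207 UMIs in Drug_Radiation, Drug, Radiation and Control, and ATP5MG itself had 738, 688, 626 and 633 CPM in those libraries. The log2 ratio of ATP5MGL in Drug against Control was -3.65 (-3.95 to -3.34), the lowest of all members, but how reads were divided between the copies is not given in the sources used here and its values are uncertain.

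The 13 subunits encoded by mitochondrial DNA followed another order. Summed, they had 54801 CPM in Drug_Radiation, 42521 in Drug, 36827 in Radiation and 33696 in Control. Set against the members, there were 1.82 mitochondrially encoded UMIs per nuclear-encoded respiratory chain UMI in Drug_Radiation, 1.31 in Drug, 1.41 in Radiation and 1.13 in Control. In Drug_Radiation against Drug, all 13 lay above the median of all features (50%), 7 of them by 1.5-fold (1.69%), with a median log2 ratio of 0.41, where the nuclear-encoded members had -0.18. In Radiation against Control, 2 of 13 lay above that median (50%), with a median log2 ratio of 0.09. The mitochondrial share of UMIs is also a measure of cell quality, and its part in these ratios was not tested.

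MT-CO2, a catalytic subunit of complex IV, had the largest difference with QTP. It had 6377 CPM in Drug_Radiation, 5269 in Drug, 1552 in Radiation and 1433 in Control, log2 ratios of 1.88 in Drug against Control and 2.04 in Drug_Radiation against Radiation. MT-CO1, which carries the active site of the same complex, had only 0.47 and 0.76 in those comparisons, and MT-CYB of complex III 0.05 and 0.12. MT-ND4L of complex I had 725.6 CPM in Drug_Radiation, 442 in Drug, 198 in Radiation and 264 in Control. MT-ATP8 of complex V had 314 CPM in Drug_Radiation, 178 in Drug, 110.1 in Radiation and 179 in Control, low in Radiation alone. Genes of mitochondrial DNA are copied as shared long precursors, so how the counting placed reads that span neighbours bears on these single genes, and it is not given in the sources used here.

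Genes that work with the respiratory chain were described from lists chosen with earlier results known. Of 49 assembly factors, 31 passed the floor in Radiation against Control, where 22 lay below the median of all features and 3 were called lower (7.18% of features), near the share of all features. In Drug_Radiation against Drug 35 passed it, 25 lay below the median and 0 were called lower (0.628%) or higher (1.69%). BCS1L, which inserts the Rieske protein, had 38.5 CPM in Drug_Radiation, 39.9 in Drug, 28.0 in Radiation and 19.7 in Control, while COA6, a copper factor of complex IV, had 55.6 CPM in Drug_Radiation, 94.3 in Drug, 75.8 in Radiation and 106 in Control. NDUFAF8 had 52.1 CPM in Drug_Radiation, 39.6 in Drug, 42.4 in Radiation and 72.1 in Control, the order seen in CYC1 in that Control was the highest. Of 20 genes of the TCA cycle and pyruvate entry, 16 passed the floor in Radiation against Control and 12 of them lay above the median of all features, with a median relative ratio of 0.06, in place of -0.37 for the respiratory chain. In Drug_Radiation against Drug 13 of 19 lay below it. MPC2, a subunit of the pyruvate carrier, had -0.60 in Drug_Radiation against Drug.

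The mitochondrial ribosome, which translates the mitochondrially encoded subunits, had 57 of 77 genes below the median of all features in Radiation against Control, 58 of 77 in Drug_Radiation against Drug and 55 of 77 in Drug against Control, with median relative ratios of -0.19, -0.06 and -0.19. MRPS26 had -0.86 in Radiation against Control and MRPL2 had 1.22 in Drug against Control, the ends of the list in those comparisons by the low and the high side. Of 12 regulators of mitochondrial biogenesis, only 3 or 4 passed the floor. TFAM, which packages and transcribes mitochondrial DNA, had 50.7 CPM in Drug_Radiation, 79.7 in Drug, 66.5 in Radiation and 67.2 in Control. Of the electron carriers and cristae proteins, cytochrome c itself (CYCS) had -0.46 in Drug_Radiation against Drug and -0.12 in Radiation against Control. CHCHD3, a protein of the cristae junction, had 199.8 CPM in Drug_Radiation, 235 in Drug, 575 in Radiation and 549.5 in Control, lower in both libraries with QTP.

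The share of a cell's nuclear-encoded UMIs that came from the members had a median of 2.94% in Drug_Radiation, 3.22% in Drug, 2.49% in Radiation and 2.95% in Control. From the 5th to the 95th percentile it ran from 2.10% to 3.79% in Drug_Radiation, 2.24% to 4.22% in Drug, 1.79% to 3.33% in Radiation and 1.88% to 4.23% in Control. With each cell thinned to 1000 UMIs the medians were 2.93%, 3.20%, 2.47% and 2.94% in Drug_Radiation, Drug, Radiation and Control. Every cell kept held at least 1 UMI of a member. Drug was the highest and Radiation the lowest, as in the sums.

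Within libraries the share differed with depth, and the libraries overlapped in depth only in part. In Radiation the pooled share was 2.17% in 80 cells of 1000 to under 2000 UMIs, 2.33% in 550 cells of 2000 to under 4000, 2.53% in 1260 cells of 4000 to under 8000, 2.76% in 497 cells of 8000 to under 16000 and 2.996% in 38 cells of 16000 to under 32000. In Control it was 3.02%, 2.95%, 2.99% and 3.13% in the first 4 of those ranges (1249, 1281, 579 and 72 cells), with little slope. The log2 ratio of the share in Radiation against Control was thus -0.48 among the shallowest cells and -0.34, -0.24 and -0.18 in the ranges that follow. In Drug_Radiation against Drug it was -0.20 at 4000 to under 8000 UMIs, -0.17 at 8000 to under 16000, -0.13 at 16000 to under 32000 and -0.05 at 32000 or more. Members made up a smaller share in irradiated than in unirradiated cells in all 8 such ranges, by less where cells were deeper. In Drug_Radiation against Drug the median of all features was itself -0.18 over all cells and -0.15 in cells of 6500 to 15000 UMIs, so the share there was low by about as much as the typical feature. In Radiation against Control that median was 0.19 and 0.07. In Drug against Control the log2 ratio of the share was -0.05 and 0.04 in the 2 ranges both libraries held, where the sums over all cells gave 3.25% and 2.99%. The median of all features in Drug against Control was 0.51 over all cells and 0.245 in cells of 6500 to 15000 UMIs. Mitochondrially encoded UMIs made up 6.14% of all UMIs in the shallowest cells of Radiation and 2.73% in its deepest, against 3.34% in the shallowest cells of Control and 2.69% in those of 8000 to under 16000 UMIs. Their part in the slope was not tested.

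**Figure D5:**
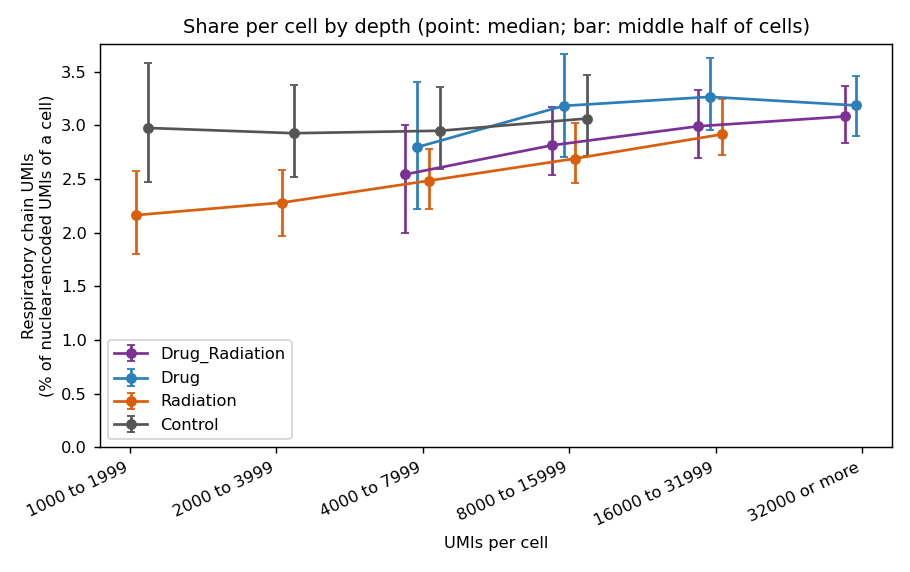
Share of each cell's nuclear-encoded UMIs that came from the members, by range of UMIs per cell, with the median of the cells (points) and the 25th to 75th percentile (bars) in each library. The points of Radiation run from 2.16% to 2.92% across ranges and those of Control from 2.93% to 3.06%, and Drug_Radiation lies below Drug in each of the 4 ranges they share.

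Transcript length is a property that the members share, since most encode small proteins. By the median length of their protein-coding transcripts in GENCODE 29, 39 of the members compared were at most 700 bases, 26 were over 700 and at most 1000 bases and 17 were longer. That median is over every annotated protein-coding transcript of a gene and is not the length of the RNA captured. It placed UQCRC2 at 586 bases and ATP5F1E at 1878, so the classes may misplace genes. In Radiation against Control the median relative ratio was -0.40 in the shortest class, -0.32 in the middle and -0.18 in the longest, where all features had -0.16, -0.03 and 0.04. In Drug_Radiation against Radiation the members had 0.14, -0.04 and -0.07 by class, and 29 of 39 of the shortest lay above the median of all features (50%). Across members, the log2 ratio and the length had a Spearman correlation of 0.29 in Radiation against Control (82 members) and -0.28 in Drug_Radiation against Radiation (81), given as a description of points that share libraries. Across all features tested it was 0.06 and 0.08. Across members it was -0.29 in Drug_Radiation against Drug, 0.18 in Drug against Control and 0.04 in Drug_Radiation against Control, where the class medians were -0.29, -0.26 and -0.29 and showed no trend with length. Among all features too, the shortest class stood low in each comparison with Control, which share that library. Its median relative ratio was -0.16 for Radiation, -0.10 for Drug and -0.09 for Drug_Radiation against Control, and 0.02 in Drug_Radiation against Radiation. In each length class of the comparisons with Control, the members lay lower than all features did. The part of length in the ratios was not tested.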

How the data were processed

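The authors deposited UMI counts by gene and barcode for each library, as whole numbers that had not been normalized. Per the labels' protocols a PIPseq V T2 3′ kit was used, while another label names 10x Genomics, so the kit is not settled. The build hg38 and the package Seurat (version 4.3.3) appear in the submitters' processing notes, with no role. Not given in the sources used here are the aligner, counter, strand, annotation and barcode calling. Cells with at least 500 UMIs, at least 300 genes and under 20% mitochondrial UMIs were kept, which left out 16 barcodes in Drug_Radiation, 4 in Drug, 3 in Radiation and 1 in Control. No doublet caller was run, so doublets were not removed. Totals kept were 149368293 UMIs in Drug_Radiation, 90903552 in Drug, 14859709 in Radiation and 9249567 in Control.

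UMIs of each library were added, scaled to the nuclear-encoded total, and compared as plain log2 ratios with no pseudocount among features of at least 20 CPM in either library. Intervals at 95% are exact Poisson (CPM), exact conditional binomial (ratios) and Clopper-Pearson (shares). Like the limit of 3 counts for a count of 0, they cover counting error only. Calls of 1.5-fold and 2-fold are relative to the median of all features. Named genes were the highest and lowest of each complex in each radiation and QTP comparison, SDHA to SDHD, CYC1, ATP5IF1, isoform pairs and members 2-fold from the median. From the other lists they were the extremes. Some of the genes so chosen are not reported here. NDUFS1, NDUFV1, NDUFV2, NDUFA5, NDUFC2, NDUFA1, UQCRC2, UQCRFS1, UQCRH, COX7A2L, ATP5F1C, ATP5MK, ATP5PO and the further list genes were named after their values were seen, and so were the 4 promoters shown, the ranges of depth and the length classes. The members and lists were chosen with earlier results of these data known. Positions and lengths are from GENCODE 29. Tools were Python 3.11.15, numpy 2.4.6, scipy 1.17.1, pandas 2.3.3 and matplotlib 3.10.9, with R 4.3.3, edgeR 4.0.16 (TMM) and DESeq2 1.42.0 (size factors) for alternative scaling only. The code was tested on simulated data.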

Additional observations from a re-analysis of the deposited data

Results flagged for a closer look

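CYC1 and NDUFA4L2 were noted because the ratio for one treatment had opposite signs with and without the other and differed by at least 1 on the log2 scale. Opposite signs alone were common. Of 81 members, 19 had them for radiation and 20 for QTP with both counting intervals clear of 0. Among them for radiation were SDHA (-0.26 with QTP and 0.61 without it), UQCRC1 (-0.35 and 0.46), NDUFV1 (-0.26 and 0.51) and NDUFB1 (0.19 and -0.48). The median of all features also had opposite signs for radiation (-0.18 with QTP and 0.19 without it), but not for QTP (0.13 with radiation and 0.51 without it). Relative to all features, whatever the intervals, 44 of 81 members had opposite signs for radiation and 48 for QTP. The share of all features with opposite signs was not computed. For CYC1, the log2 ratio for radiation was 0.28 with QTP (Drug_Radiation against Drug) and -1.28 without it (Radiation against Control), a difference of 1.561. The log2 ratio for QTP was 0.45 with radiation (Drug_Radiation against Radiation) and -1.12 without it (Drug against Control), again a difference of 1.561, since both differences use the same 4 libraries. For NDUFA4L2, the log2 ratio for radiation was -0.80 with QTP and 0.69 without it, and that for QTP was -0.47 with radiation and 1.02 without it, a difference of -1.485 in both cases. Neither difference was tested, as each group is 1 library.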

How the results depend on the processing

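Counts of called members depended most on how cells of different depth were used, and the cause was not tested. With cells of 6500 to 15000 UMIs, members called higher numbered 1 in Radiation against Control, 1 in Drug against Control and 0 in Drug_Radiation against Radiation (0, 0 and 1 as reported). The shares of features higher there were 5.79%, 14.4% and 11.7%. Members called lower numbered 2, 3 and 1 (8, 13 and 2 as reported), where 7.46%, 9.63% and 5.18% of features were. With cells thinned to 1000 UMIs, 31 were lower in Radiation against Control and 20 in Drug_Radiation against Control (24.4%, against 11.5% of features, with 13 as reported). With that thinning 1 was higher in Drug_Radiation against Drug (1.23%, against 2.94% of features, with 0 as reported). With equal weight per cell, 25 were lower in Radiation against Control and 21 in Drug_Radiation against Control (25.6%, against 10.7% of features). In Drug against Control, 1 was higher with the stricter cell filter, TMM scaling, DESeq2 size factors and floors of 5 and 50 CPM. At those settings 6.49%, 6.77%, 6.76%, 7.34% and 6.2% of features were higher. In Drug_Radiation against Radiation, 1 was lower with the stricter filter, DESeq2 size factors and the floor of 50 CPM (3.56%, 3.57% and 3.59% of features). With that floor 2 were higher (2.53%, against 4.61% of features). In Drug_Radiation against Control with the floor of 50 CPM, 1 of 79 was higher (1.27%, against 9.63% of features). At that floor 7 were lower (8.86%, against 9.59% of features), and in Drug against Control 9 of 80 were (11.2%, against 11.2%). Both shares of members called lower were thus near those of all features. The median relative ratio of the members stayed below 0 in the comparisons with Control under all settings run, at -0.51 to -0.23 in Radiation against Control, -0.36 to -0.18 in Drug against Control and -0.37 to -0.22 in Drug_Radiation against Control, while it ran from -0.04 to 0.01 in Drug_Radiation against Drug and from -0.02 to 0.15 in Drug_Radiation against Radiation. Of the relative ratios of named members, 870 differed from the reported value by less than the distance to its counting bounds and 265 by more. No paired analysis was possible because each group is 1 library and the labels carry no replicate numbers. Adding the UMIs of named copies was not run, since the features used hold 0 of them. Depth, batch and treatment cannot be told apart. Reads of near copies, ATP5MGL above all, may be misplaced, and UMIs from free RNA were not removed.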
